A study of Mus musculus with 1479 samples.

Results

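Cluster 7 was 1 of the 11 clusters into which the study sorted single cells of the adult mouse urinary bladder. Its members were taken by the cluster number that the labels give each cell, which was 7 for 15.5% of the 1479 bladder cells, in the numbers given below for each mouse line. It was compared with the 884 cells of clusters 1, 2, 3, 6 and 8, fibroblast clusters that expressed Cd34 and shared its plates. Clusters 9 and 11 also expressed Cd34, with log2 fold changes of cluster 7 over them of -0.29 in 2 shared groups and 0.39 in 3, and were not among the comparators. Cells came from male mice of 10 to 20 weeks, were sorted one by one into wells of 384-well plates, and were read by Smart-seq2, which copies polyadenylated RNA over its full length and here carried no molecular identifiers. The bladders were opened with a skeletal muscle dissociation kit and collagenase, with elastase added for Acta2GFP mice, and cells carrying the endothelial surface protein CD31 were sorted away.

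Comparisons were made inside 7 groups, each 1 mouse line on 1 plate. In Acta2GFP mice, where the promoter of the smooth muscle actin gene Acta2 drives GFP, plate bladder_515s held 9 cells of cluster 7 and 64 of the comparator clusters. In Cspg4dsRED mice, where the promoter of the proteoglycan gene Cspg4 drives a red fluorescent protein, plate bladder_352s held 11 and 14. In PdgfraGFP mice, which report the PDGF receptor gene Pdgfra, plate bladder_689s held 31 and 92. PdgfrbGFP mice, which report the PDGF receptor gene Pdgfrb, gave 79 cells of cluster 7 on bladder_074s, 22 on bladder_515s and 41 on bladder_881s. C57BL6 mice carried no reporter, were sorted with antibodies to the PDGF receptors, and gave 36 and 130 cells on bladder_443s. No treatment is named for any group, and all lines were kept on the C57BL6 background. A reporter marks any cell that uses the promoter, some mice combined reporters, and the labels name no animal, so line and sort cannot be told apart, and line and plate only in part, where 1 line was on several plates or 2 lines shared a plate. The spread between groups may be partly technical. The 14 comparator cells of the Cspg4dsRED group stood apart, since 10 of them were of cluster 8, 3 of cluster 2, 1 of cluster 6 and 0 of clusters 1 and 3, whereas every other group held all 5 comparator clusters.

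Fibroblasts of the bladder wall make the collagen, elastic fibres and proteoglycans of the lamina propria and fill the spaces between bundles of detrusor muscle. They also send signals to the urothelium, the epithelium that faces the urine. BMPs are secreted ligands of the TGF-beta superfamily that act through SMAD proteins and are held in check by secreted antagonists, and Wnt proteins act through Frizzled receptors and are likewise bound by secreted inhibitors. Cd34, a surface sialomucin, marks many connective tissue fibroblasts outside the layer just beneath an epithelium.

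Among the genes that stood highest in cluster 7 were the BMP ligand gene Bmp5, the lectin gene Chodl, and the transcription factor gene Gata5. The 250 bases before the RefSeq start of Bmp5 and Chodl (GRCm38.p6, plus strand) are shown because these are a signalling and a surface protein gene of that group. The promoters were searched on both strands for GATAA, which reads TTATC on the other strand and is a core that GATA factors bind. Capitals mark a match.
Bmp5 (chr9:75775115-75775364): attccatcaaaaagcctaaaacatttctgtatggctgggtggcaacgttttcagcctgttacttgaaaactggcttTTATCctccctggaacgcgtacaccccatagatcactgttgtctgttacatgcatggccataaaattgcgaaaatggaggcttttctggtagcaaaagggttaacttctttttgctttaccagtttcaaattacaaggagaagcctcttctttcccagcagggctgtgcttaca
Chodl (chr16:78930698-78930947): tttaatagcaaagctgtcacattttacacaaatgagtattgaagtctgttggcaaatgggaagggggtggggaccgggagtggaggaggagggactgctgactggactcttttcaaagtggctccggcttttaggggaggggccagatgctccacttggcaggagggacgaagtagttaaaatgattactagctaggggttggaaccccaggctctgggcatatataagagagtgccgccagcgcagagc
The Bmp5 window held 1 GATA core and the Chodl window held none. Of the 15 leading genes defined below, 11 had an entry in the promoter table, and 3 of these 11 (27.3%) held a GATA core. Over all 27025 promoters of the same length the share was 23.02% (6221). A match describes letters in a window and is not a binding site, and a window without a match tells nothing of the factor. Bmp3, Necab1 and Stmn2 are named only.

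Read depth was similar in both classes when all cells were pooled, and differed within some groups, with medians of 176595 endogenous reads in cluster 7 and 119787 in the comparators of PdgfraGFP, and of 150025 and 118076 in Cspg4dsRED. A cluster 7 cell had a median of 231367 endogenous reads (range 49532 to 1154202) and 5325 detected genes, and a comparator cell a median of 241618 reads (48455 to 1433402) and 5378.5 genes. Mitochondrial reads had a median of 1.23% in cluster 7 and 1.19% in the comparators. The number of endogenous reads per read of the ERCC spike-in RNAs, which were added to every well in equal amount, was the 1 measure tested. Its endogenous reads are the counts from which the clusters were made. Cells had also been filtered on reads and spike-in share, so the measure is not independent of the clusters. Cluster 7 differed from its comparators by a mean of -0.07 ± 0.33 on the log2 scale (SD, n = 5 lines), above 0 in 2 lines and below 0 in 3. An exact two-sided sign-flip permutation test over the 5 lines gave p = 0.625, in a design whose smallest possible p is 0.0625.

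The clusters were made from the expression values of these same cells, so a gene's difference between cluster 7 and its comparators is a description and carries no p-value. Reads were summed over the cells of a class in each group, and levels are given as normalised reads per 500000 endogenous reads, as mean ± SD over the 7 groups. A gene was called when the log2 fold change fitted by edgeR was at least 1 in size and its level differed in the same direction in 7 of 7 groups. The direction in a group could rest on very few reads. In Cspg4dsRED, Ednrb, Efhd1 and Bmp5 were at 0.310 against 0, and Limch1 was at 0.619 against 0.299. Inhba, Lamb3 and Cacna1c were there at 0 against 0.299. Of 16662 genes tested, 0.828% were called higher and 2.57% (429 genes) were called lower in cluster 7. The fitted median gene lay at -0.26, and when the scale was shifted to put that gene at 0, 2.54% (423 genes) were called higher and 1.72% lower. Among the 8136 genes that reached 10 normalised reads in either class, a level chosen after the data were seen, 1.52% were higher and 3.23% lower. Of the called genes named here, 54 kept the call in every alternative setting in which they were fitted and 54 lost it in at least 1. The losses are given below for part of these genes only. Without the Cspg4dsRED group, 9 further members of the gene lists were called higher and 30 lower. Beside the lists where this is said below, lower calls were added, among others, for Cnn1 among mural markers and Kit among markers of interstitial cells of Cajal. They were also added for Gdf6 and Inhbb in the list of BMP and GDF ligands, Wnt6, and the Wnt antagonist Frzb. Others were Fgf2 and Fgf9, Itga3 and Itga10, and Sgk1 among steroid targets. Higher calls were added for the BMP target Id4, Igf1r, Col4a6, Col23a1, Emilin2 and Ptgfr.

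**Figure D1:**
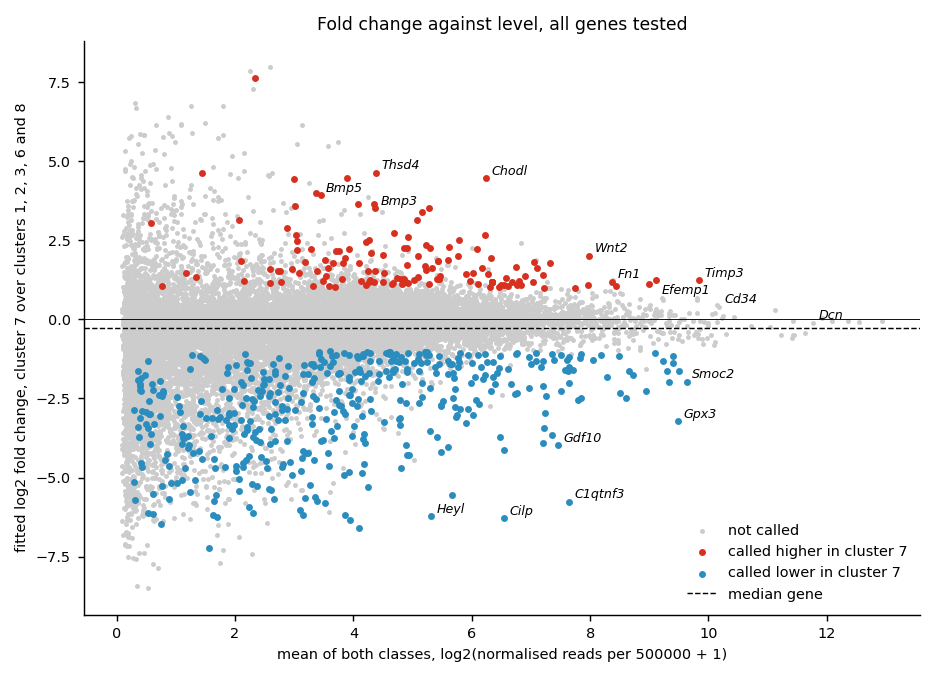
Fitted log2 fold change of cluster 7 over clusters 1, 2, 3, 6 and 8 (vertical axis) against the mean level of both classes, as log2(normalised reads per 500000 + 1) (horizontal axis), for each of 16662 genes. Red points are the 0.828% of genes called higher, blue points the 2.57% called lower, grey points the others, and the dashed line is the median gene at -0.26.

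Cd34 and Bmp3 had been given as the markers of cluster 7, and they behaved differently. Cd34 (ENSMUSG00000016494, chr1:194938819-194961279 by GRCm38) was abundant in cluster 7, with a lowest, median and highest group level of 903, 1188 and 1753, against 524, 808 and 1560 in the comparators. The ranges overlapped widely, and the mean of 1297 ± 371 against 1009 ± 393 corresponded to a log2 fold change of 0.41 (SE 0.12) with 6 of 7 groups higher, so Cd34 was not called. Without the Cspg4dsRED group the value was 0.29. Bmp3 (ENSMUSG00000029335, chr5:98854415-98884396), a BMP family ligand that can oppose other BMPs, had levels of 11.4, 36.7 and 61.8 in cluster 7 and 0.30, 4.39 and 7.41 in the comparators. Its groups did not overlap, and its log2 fold change was 3.52 (SE 0.69). The Acta2GFP group had the smallest Bmp3 difference, with 11.4 against 7.41 reads, and in cells thinned to 50000 reads the log2 fold change of Bmp3 was 1.71 and it was not called.

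The fibroblast character of the cells was plain from their most abundant transcripts. Per kilobase of exon, Gsn, which encodes the actin-severing protein gelsolin, led with 1848 reads, followed by the matrix protein gene Fbln1 (899), the complement inhibitor gene Serping1 (823), the calcification inhibitor gene Mgp (692) and Igfbp6 (631). Among the marker genes examined, the highest per kilobase were Dcn (570), Ly6a (486), Col1a1 (411), Pi16 (388) and Lum (287.8), and Cd34 had 177.96. Of 7 fibroblast identity genes, 0 were called higher and 1 lower, with a median log2 fold change of -0.60. The lower gene was Dpt, which encodes dermatopontin (117.1 ± 67.7 against 300 ± 63.97, log2 fold change -1.60, SE 0.28), and it was not called under median-of-ratios scaling, under DESeq2 or with the median gene at 0. Dcn, the decorin gene, lay at 3330 ± 974 against 3636 ± 1199.8 with a log2 fold change of -0.11. Of 10 adventitial fibroblast markers, 3 were called higher and 0 lower. These were Fn1, the fibronectin gene, at 461 ± 139.4 against 200.9 ± 53.5 (log2 fold change 1.19), Limch1 at 20.5 ± 12.1 against 4.40 ± 3.01 (2.18), and the guidance ligand gene Sema3c at 274.9 ± 87.3 against 150 ± 74.2 (1.01). Sema3c was not called without the Cspg4dsRED group, where its value was 0.82, nor was it called without PdgfrbGFP on bladder_881s, with no low-count filter, in thinned cells, with no block, or with all other or equally weighted clusters. With all other fibroblast clusters as comparators Fn1 (0.83) and Limch1 were not called either. Pi16 (2467 ± 625 against 2019 ± 570) and Ly6a (586 ± 159.2 against 438 ± 97.96) were not called.

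Genes of other cell types were mostly low, with exceptions. Acta2 and Tek had reads in every group of both classes. Acta2 had a lowest, median and highest group level of 17.4, 38.5 and 154.97 in cluster 7 and 21.2, 41.5 and 132.5 in the comparators. Tek had 27.8, 41.02 and 67.8 against 5.08, 38.98 and 60.8. In the Cspg4dsRED group of cluster 7, Cspg4 was at 73.99, S100b at 77.1, Krt8 at 56.7 and Kcnj8 at 49.5, against medians over the groups of 2.96, 0.422, 0.0877 and 0.101. The comparators of the Cspg4dsRED group had 44.2, 4.78, 0.896 and 0, so Cspg4 was high in both classes there. Before deposit the study had removed cells with endothelial or immune signatures and cells with neither PDGF receptor gene, and the part of this step in the marker levels was not tested. Summed over the list, 10 mural cell markers had 32.5 to 237.7 normalised reads in cluster 7 and 65.3 to 211.7 in the comparators, and 0 were called. Of 7 endothelial markers, 2 were called lower, the VEGF receptor genes Kdr (0.302 against 8.10) and Flt1 (0.656 against 8.85), and the summed level was 32.2 to 76.8 against 28.7 to 92.2. Immune markers summed to 0.422 to 8.75 against 3.44 to 26.6, with Ptprc and Cd3e at 0 reads in cluster 7, and Lyz2, the lysozyme gene, was called lower. Urothelial markers summed to 0.0166 to 93.2 against 0.275 to 33.9, mesothelial markers to 0.183 to 22.3 against 0.354 to 23.8, and 0 members of either list were called. Glial and nerve markers summed to 3.80 to 77.7 against 1.51 to 6.32, where 1 cell held 81.9% of the cluster 7 reads of S100b and 0 of 4 tested members were called. Of 4 markers of interstitial cells of Cajal, Etv1 was called lower (3.53 ± 4.92 against 19.1 ± 11.5). The part of these genes in the differences below was not tested.

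The 15 called protein-coding genes with the largest fold changes and a level of at least 10 formed a mixed set of secreted, surface and nuclear proteins, and 14 of them are named here. Ordered by fold change they were Thsd4, Tspan8, Chodl, Ednrb, Efhd1, Bmp5, Necab1, Gm973, Asz1, Bmp3, Gata5, Stmn2, Slc4a4 and Slc9a3r1, with log2 fold changes from 4.64 (SE 0.73) for Thsd4 to 2.74 (SE 0.79) for Slc9a3r1. Chodl, which encodes the membrane lectin chondrolectin, was the most abundant of them. It had levels of 79.9, 118.6 and 274.2 (lowest, median and highest group) in cluster 7 against 0.205, 6.13 and 26.9 in the comparators. Its lowest cluster 7 group thus lay above its highest comparator group, with a log2 fold change of 4.46 (SE 0.84). Bmp5, whose product signals through type I BMP receptors, was low and uneven. Its levels were 0.310, 17.02 and 62.9 in cluster 7 and 0, 0.658 and 3.71 in the comparators, and its log2 fold change was 3.93 (SE 1.22). The groups overlapped for Bmp5, because the Cspg4dsRED and PdgfraGFP groups had 0.310 and 0.710 reads in cluster 7, and an antisense transcript overlaps the gene. In cells thinned to 50000 reads, Bmp3, Ednrb, Bmp5, Gm973, Asz1 and Slc4a4 were not called, and with all other fibroblast clusters as comparators Thsd4, Tspan8, Ednrb and Bmp5 were not. With equally weighted clusters Bmp5, Gm973, Asz1 and Slc4a4 were not called. Gm973 and Slc4a4 were not called with means over cells, nor Tspan8 in sums per mouse line.

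Gata5, a GATA transcription factor gene, had levels of 26.3, 69.3 and 101.7 in cluster 7 and 0, 5.75 and 15.4 in the comparators, with a log2 fold change of 3.38 (SE 0.73). Its groups did not overlap, and the antisense transcript Gata5os overlaps it. Thsd4, which encodes a thrombospondin-repeat protein that binds fibrillin microfibrils, had 37.7 ± 20.9 against 2.03 ± 2.25. The tetraspanin gene Tspan8 had 26.3 ± 16.98 against 1.32 ± 1.14, and Ednrb, the endothelin receptor B gene, had 13.3 ± 10.0 against 0.648 ± 0.604. Stmn2, a microtubule regulator known from neurons, had 60.6 ± 72.5 against 5.11 ± 5.33. Its cluster 7 level was 218.2 in Cspg4dsRED and 13.1 to 77.4 in the other groups. Slc4a4, a sodium bicarbonate cotransporter gene, had 11.6 ± 11.9 against 1.08 ± 0.993, and Slc9a3r1, the gene of a scaffold protein that binds the sodium-hydrogen exchanger, had 44.8 ± 48.9 against 4.60 ± 2.53. In both transporter-related genes the spread between groups was as large as the mean. Asz1 (68.8 ± 37.9 against 6.74 ± 4.61), a gene known from germ cells, lies 20379 bases from Wnt2, the reads of Gm973 cannot be told apart from those of overlapping genes, and 1 cell held 29.4% of the Efhd1 reads of cluster 7.

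**Figure D2:**
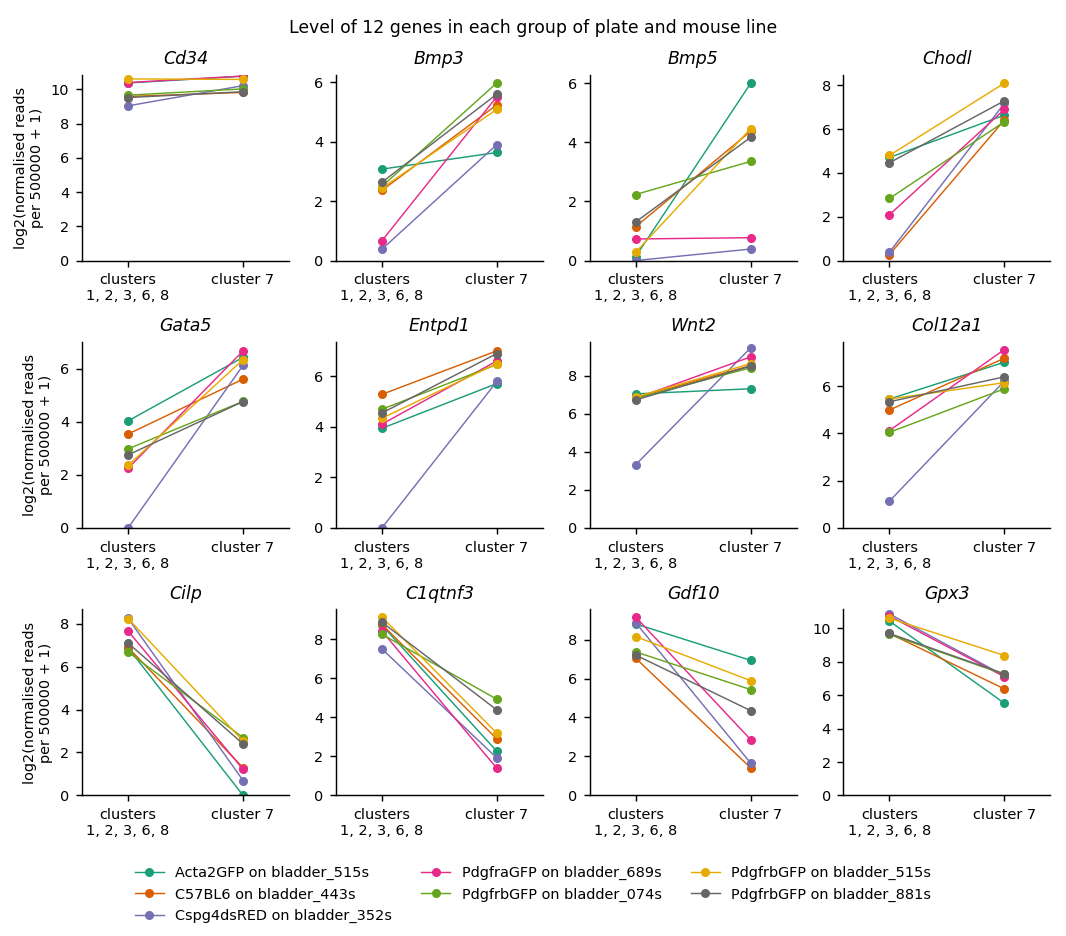
Level of 12 genes as log2(normalised reads per 500000 + 1) (vertical axis) in clusters 1, 2, 3, 6 and 8 together and in cluster 7 (horizontal axis). Each colour is 1 of the 7 groups of plate and mouse line, and a line joins its 2 classes. Cd34 overlapped between the classes, the Chodl points of cluster 7 lay at or above 79.9 reads and those of the comparators at or below 26.9, and Cilp had at most 5.48 reads in cluster 7 and at least 101.5 in the comparators.

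The list of BMP and GDF ligands, which also held the activin subunit genes Inhba and Inhbb, went both ways. Of its 14 tested members, 2 were called higher, Bmp3 and Bmp5, and 2 lower, Gdf10 and Inhba. The median log2 fold change was -0.07 beside -0.26 over all genes. Inhba was low in both classes, with at most 2.03 reads in cluster 7 and 6.13 in the comparators. Gdf10, a close relative of Bmp3 in sequence, had levels of 1.67, 19.4 and 121.2 in cluster 7 and 131.3, 283.9 and 570 in the comparators. The highest cluster 7 group lay below the lowest comparator group, and the log2 fold change was -3.98 (SE 0.82). Bmp4, the ligand of the list with the most reads in cluster 7, had 337.2 ± 76.6 against 280 ± 42.1 and was not called. Of 13 BMP antagonists, 0 were called higher and 2 lower, with a median of -0.72. Chrdl1, a chordin-like inhibitor gene, had 9.08 ± 9.03 against 27.6 ± 10.0 and was not called in thinned cells, with means over cells or with all other fibroblast clusters as comparators, and Smoc2, whose product is a matricellular protein, had 323.2 ± 68.6 against 1260 ± 260 (log2 fold change -1.96, SE 0.16). Of 13 BMP receptors and targets 0 were called, among them the BMP target gene Id1 (59.7 ± 64.1 against 22.8 ± 18.5) and Id3 (307.6 ± 161.6 against 207.2 ± 35.2).

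Wnt2 was the 1 member called of 11 Wnt ligands and R-spondins tested, whose median was 0.24. It had levels of 157.5, 367 and 701 in cluster 7 and 8.96, 111.05 and 130.5 in the comparators, and a log2 fold change of 2.01 (SE 0.52). Every cluster 7 group lay above every comparator group, the widest gap being in Cspg4dsRED, without which the value was 1.57. Of 7 secreted Wnt antagonists, 0 were called higher and 1 lower, Sfrp1 (54.5 ± 21.9 against 120.7 ± 50.8). Sfrp2 (100.4 ± 30.6 against 26.6 ± 18.4, higher in 6 of 7 groups) and Dkk3 (567 ± 139.2 against 353 ± 53.1, higher in 7 of 7 groups, log2 fold change 0.66) were not called. The retinoid list had 1 of 11 called, with Aldh1a1, a retinoic acid synthesis gene, lower at 21.1 ± 18.1 against 82.1 ± 34.7. Aldh1a1 was not called in thinned cells or with means over cells. Hedgehog response genes had 0 of 10 called, with a median of -0.85.

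Growth factor and guidance genes were called in both directions. Igf1 was called lower (37.8 ± 28.1 against 173.5 ± 73.8, log2 fold change -2.37), as were Fgf10 (1.03 ± 1.48 against 6.79 ± 5.79), a ligand that acts on epithelium, and the receptor gene Fgfr3 (4.65 ± 7.17 against 25.4 ± 17.96). Neither Fgf10 nor Fgfr3 was called in thinned cells or with means over cells, nor was Fgf10 with all other fibroblast clusters or Fgfr3 with equally weighted clusters. The related receptor gene Fgfr2 had levels of 0, 16.3 and 36.5 in cluster 7 and 0.468, 2.06 and 3.46 in the comparators, higher in 6 of 7 groups, and was not called with Cspg4dsRED and was called without it, where its log2 fold change was 3.67. Pdgfrl had 11.98 ± 6.59 against 92.7 ± 25.9, and the lymphatic growth factor gene Vegfc had 3.54 ± 5.42 against 20.0 ± 11.3. In the TGF-beta list 1 of 12 was called, Ltbp2 (12.3 ± 14.2 against 40.2 ± 17.7), whose log2 fold change was -2.09, -3.03 and -2.55 against clusters 3, 6 and 8 singly and 3.92 and 0.87 against clusters 1 and 2. Of 20 neurotrophic and axon guidance genes, 2 were higher, Sema3b (83.4 ± 34.6 against 39.5 ± 21.3) and Sema3c, and 3 lower, Sema3d, Sema3f and Epha3. Sema3b was not called without Cspg4dsRED, with a value of 0.79, in thinned cells, or with all other or equally weighted clusters. Sema3d was not called without cluster 2, nor Epha3 with all other fibroblast clusters. Sema3f was not called with the median gene at 0 or with equally weighted clusters.

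Matrix genes were called in both directions. Of 9 fibrillar collagens only Col5a3 was called, lower, with a list median of -0.57, and it was not called without Cspg4dsRED (-0.92). Of 21 basement membrane collagens and laminins, 0 were higher and 6 lower, Col4a1, Col4a2, Col4a3, Col4a4, Lamb3 and Nid2, with a median of -0.79. Col4a2 was not called without Acta2GFP, with no block or with the median gene at 0, and Lamb3 lost its call in 5 alternatives. Nid2 was not called with the median gene at 0, in thinned cells or with no block. Col4a1 had 91.9 ± 50.7 against 201.5 ± 47.7. Col12a1, a collagen that lies along collagen I fibrils, was called higher and was 1 of 2 called among 13 other collagens. Its levels were 58.3, 83.2 and 186.4 in cluster 7 and 1.20, 30.8 and 42.9 in the comparators, without overlap, and its log2 fold change was 2.22 (SE 0.53), but 0.75 and not called with all other fibroblast clusters as comparators. The other was Col6a3, lower at 77.3 ± 34.6 against 208.4 ± 78.3.

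The elastic fibre list had 1 higher and 4 lower of 18. Efemp1, which encodes fibulin-3, was higher at 792 ± 305.7 against 319.2 ± 59.98 (log2 fold change 1.26, SE 0.17), while Eln, the elastin gene, was lower at 105.7 ± 54.7 against 288.7 ± 104.3, together with the microfibril gene Mfap4 (333.8 ± 204.2 against 921 ± 324.3) and the crosslinking enzyme genes Lox and Loxl4. Small leucine-rich proteoglycans had 0 higher and 3 lower of 12, Fmod, Ogn and Omd, with a median of -1.89, and 1 cell held 61.2% of the Fmod reads of cluster 7. Of 18 matricellular genes, 1 was higher, Spon1 (78.6 ± 72.5 against 17.3 ± 12.4, not called at 0.18 with all other fibroblast clusters), and 4 lower, Thbs1, Spon2, Ccn1 and Cilp, of which Ccn1 was not called without Acta2GFP or without PdgfrbGFP on bladder_881s. The ADAMTS list had 1 higher, Adamtsl4 (144.7 ± 38.6 against 70.5 ± 25.05), and 4 lower of 19, Adamts1, Adamts8, Adamtsl2 and Adamtsl3. Adamtsl4 was not called without PdgfraGFP, without the PdgfrbGFP line, without its bladder_515s group alone, in thinned cells or without cluster 2. Adamts1 and Adamtsl3 each lost the call in 5 alternatives, among them without PdgfrbGFP on bladder_515s, and Adamts8 in 7, among them median-of-ratios scaling and DESeq2. Timp3, a matrix-bound metalloprotease inhibitor gene, was the 1 called of 13 proteases and TIMPs, at 1284 ± 407 against 555 ± 206.3 (log2 fold change 1.23, SE 0.16), and Syn3 overlaps it on the opposite strand. Of 18 members of the integrin list, Itgb8 and the integrin-beta-like gene Itgbl1, whose product is not an integrin subunit, were lower. Itgb8 had at most 0.855 reads in cluster 7 and a median of 0.918 in the comparators. It was not called with the median gene at 0, means over cells or equally weighted clusters. Of 4 cadherins tested 0 were called. Cdh2 and Cdh4, which had at most 0.150 reads in cluster 7 and at most 3.27 in the comparators, were lower in 6 of 7 groups and at 0 in both classes of Cspg4dsRED, without which both were called (-5.28 and -5.91).

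**Figure D3:**
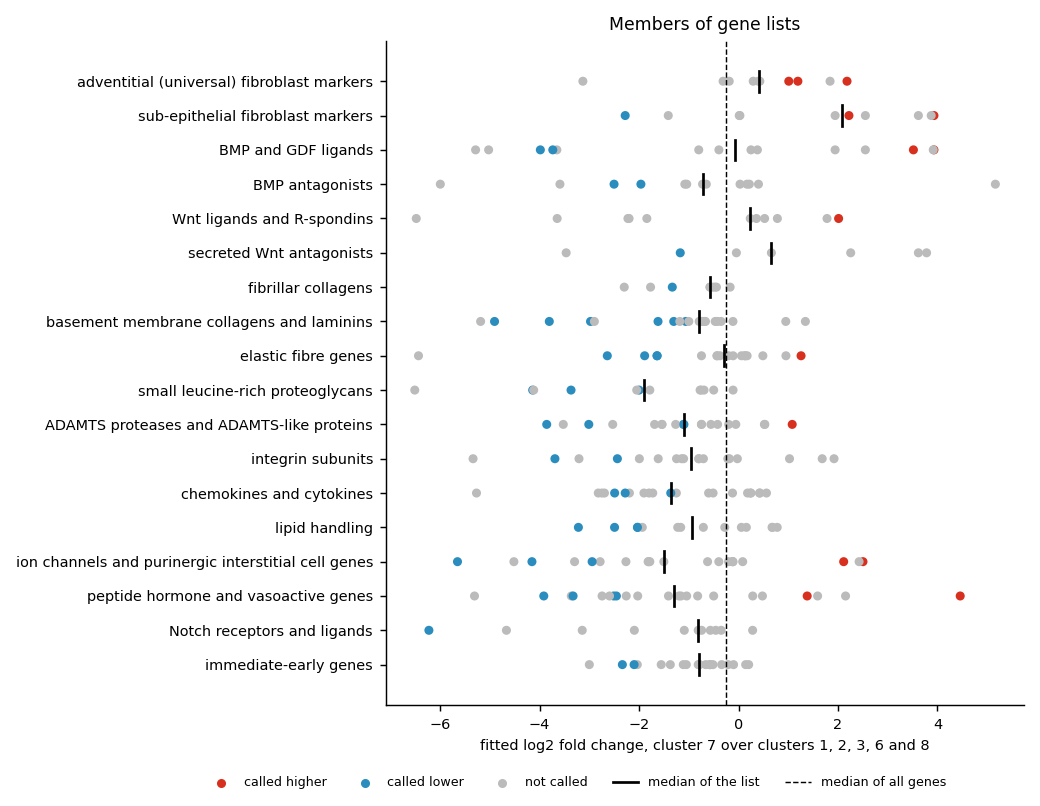
Fitted log2 fold change of cluster 7 over clusters 1, 2, 3, 6 and 8 (horizontal axis) for the tested members of gene lists (rows). Each point is a gene, red where called higher, blue where called lower and grey otherwise, the black bar is the median of the list and the dashed line the median of all genes at -0.26. The proteoglycan bar lies at -1.89 and that of the sub-epithelial markers at 2.08.

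The 10 leading lower genes were Dapk2, Fibin, Cilp, Heyl, Cpne7, Foxs1, Gna14, Hmcn2, C1qtnf3 and Musk, with log2 fold changes from -6.61 (SE 0.77) for Dapk2 to -5.76 (SE 1.13) for Musk. Cilp, which encodes a cartilage intermediate layer protein, had levels of 0, 1.45 and 5.48 in cluster 7 and 101.5, 135.9 and 303.01 in the comparators. The classes lay far apart, with a log2 fold change of -6.29 (SE 0.60). C1qtnf3, the gene of a secreted C1q and TNF family protein, had levels of 1.62, 6.45 and 29.4 in cluster 7 and 181.4, 423 and 564 in the comparators, again without overlap (log2 fold change -5.77, SE 0.50). Heyl, a Notch target gene, had 2.06 ± 3.40 against 75.2 ± 20.3. In cluster 7 a single cell held 57.4% of the Heyl reads, 59.3% of the Cpne7 reads and 72.1% of the Fibin reads. The Notch list had 1 of 11 called, Heyl itself, with a median of -0.81, and without Cspg4dsRED Notch2 (-1.25) and Dll1 (-2.94) were called lower too.

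Genes of nitric oxide, purine and ion channel signalling differed in both directions. Gucy1a1 and Gucy1b1 encode the subunits of soluble guanylate cyclase, the receptor for nitric oxide. Gucy1a1 had levels of 2.48, 17.7 and 65.4 in cluster 7 and 132.1, 283.7 and 382 in the comparators, and Gucy1b1 had 6.88 ± 9.31 against 46.3 ± 30.5. Both were called lower, with log2 fold changes of -3.92 (SE 0.46) and -3.33 (SE 0.50). Kcnn3, the SK3 potassium channel gene used as a mark of PDGFRα-positive interstitial cells, had levels of 8.69, 41.2 and 63.8 in cluster 7 against 143.3, 289.3 and 367. Its groups did not overlap, and its log2 fold change was -2.94 (SE 0.33). The ATP receptor gene P2ry1 (0.984 ± 2.13 against 15.2 ± 9.96, with 73.7% of the cluster 7 reads in 1 cell) and the calcium channel gene Cacna1c (0.295 ± 0.472 against 2.95 ± 1.66) were lower too. Entpd1, which encodes the ATP-degrading enzyme CD39, was higher, with 51.1, 88.8 and 126.6 in cluster 7 against 0, 19.2 and 37.7, and so was the connexin 43 gene Gja1 (28.2 ± 11.1 against 8.93 ± 7.07). The ion channel and purinergic list thus had 2 higher and 3 lower of 21, and the vasoactive list 2 higher and 4 lower of 22. Its higher members were Ednrb and the calcitonin-like receptor gene Calcrl (59.9 ± 31.8 against 26.3 ± 17.3, not called at 0.60 with all other fibroblast clusters), and its lower members Agtr2, Ace and both cyclase genes. Agtr2 was not called with the median gene at 0, in thinned cells, without cluster 2 or with all other fibroblast clusters. Ace was not called with the median gene at 0 or means over cells, nor Gucy1b1 without cluster 2.

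Immune, lipid and stress genes gave further lower calls. Of 21 chemokines and cytokines, 0 were higher and 3 lower, with a median of -1.36. They were Cxcl12 (384 ± 122.1 against 970 ± 236.1, log2 fold change -1.36), Ccl11 (19.9 ± 16.3 against 80.3 ± 30.3, not called under median-of-ratios scaling or DESeq2) and Cxcl14 (25.5 ± 20.1 against 131.998 ± 138.1). The comparator level of Cxcl14 was 434.8 in Cspg4dsRED and 28.4 to 144.8 in the other groups. Without Cspg4dsRED its log2 fold change was -1.70. In the complement list C4b was higher (199.04 ± 104.5 against 65.4 ± 53.98) and C7 and Colec12 lower, of 14. Neither C7 nor Colec12 was called with the median gene at 0 or with all other fibroblast clusters. Colec12 was also not called in thinned cells, with means over cells or with no block. In the prostaglandin list the receptor gene Ptger1 was higher (25.9 ± 14.6 against 9.89 ± 5.82) and Ptger4 and Ptgir lower, of 14, while the synthase gene Ptges was higher in 7 of 7 groups at a log2 fold change of 0.96 and was not called. Ptger4 was not called with the median gene at 0, means over cells or equally weighted clusters. The lipid list had 4 lower of 14, Apod, Lpl, Abca8a and Gpx3. Gpx3, the secreted glutathione peroxidase gene, had levels of 44.8, 142.4 and 330 in cluster 7 and 793, 1383 and 1861 in the comparators, a wide gap (log2 fold change -3.22, SE 0.31). Steroid receptors and targets had 0 of 11 called. Of 21 immediate-early genes, which tissue dissociation is known to raise, 0 were higher and 2 lower, Fosb (48.1 ± 42.2 against 167.1 ± 33.5) and Btg2 (67.5 ± 41.2 against 224.8 ± 51.6), while without Cspg4dsRED Fosl2, Egr2, Nr4a1 and Nr4a2 were called lower as well, making 6. Fos had 793 ± 248.4 against 1378 ± 362. Of 15 heat shock genes 1 was higher, Hspb8 (216.1 ± 89.5 against 78.3 ± 21.3). The part of dissociation in the other differences was not tested. Of 43 mesenchymal transcription factors, 2 were higher, among them Tbx3 (33.5 ± 18.6 against 15.2 ± 9.46), and Foxp2, Klf15 and Heyl were lower. Tbx3 was not called without PdgfraGFP, in thinned cells, with means over cells, in sums per mouse line, or with all other or equally weighted clusters, and Foxp2 was not called without PdgfrbGFP on bladder_074s. Without Cspg4dsRED, Twist1 and Ebf2 were called higher and Hand2 and Ebf1 lower as well. Klf15 was called neither without Cspg4dsRED (-0.85) nor under median-of-ratios scaling, DESeq2, the median gene at 0, means over cells, no block, all other fibroblast clusters or equally weighted clusters, and Osr1 (430 ± 190 against 216.1 ± 31.3, higher in 7 of 7 groups, log2 fold change 0.90) was not called.

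The pooled comparison hid differences between the comparator clusters. In comparisons added after the pooled values were seen, each was also set against cluster 7 alone, in the 6 or 7 groups that held enough cells. Of 12413 genes tested in all 5 comparisons, 402 (3.24%) were past a log2 fold change of 1 above every comparator cluster and 90 (0.725%) below every one. The median gene lay at 1.10 against cluster 2, 0.44 against cluster 1 and between -0.09 and 0.21 against clusters 3, 6 and 8. No correction was made for this shift, so counts of higher and lower genes against single clusters cannot be compared evenly. Most called genes did not separate cluster 7 from each comparator singly, since 56 (41.2%) of the called higher genes tested in all 5 and 52 (15.9%) of the called lower ones were past 1 against every cluster. Of the 15 leading genes, which were the largest by fold change, 13 were among the former, and Asz1 and Bmp3 were not. Against cluster 1, Bmp3 differed by 0.93 (SE 0.84), Asz1 by 0.63 and Wnt2 by 0.08, whereas Chodl differed by 2.05 and Bmp5 by 4.82. Against cluster 6, the differences were 6.31 for Bmp3, 5.47 for Chodl and 4.18 for Wnt2. Cluster 1 was thus the comparator whose Bmp3 and Wnt2 lay closest to those of cluster 7. In sums per 500000 reads without further normalisation, Bmp3 was at 37.4 ± 20.98 in cluster 7 and 22.6 ± 12.7 in cluster 1, which overlapped, then at 3.26 ± 1.97 in cluster 3 and between 0.531 and 0.755 in clusters 2, 6 and 8.

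Among the leading lower genes, only C1qtnf3 and Cpne7 were past -1 against every comparator cluster, of the 6 leading lower genes tested in all 5 comparisons. Cilp was close to cluster 7 in cluster 1 (log2 fold change -0.18) and farthest in cluster 8 (-7.83), and Heyl was close in cluster 1 (-0.23) and far in clusters 3 and 6 (-6.25 and -6.91). Gdf10 was likewise highest in cluster 8 (-5.52) and not lower than in cluster 2 (0.59). Gpx3 was lower against each comparator, from -2.45 against cluster 2 to -3.88 against cluster 8, and Gucy1a1 from -1.39 against cluster 1 to -4.56 against cluster 6. Entpd1 was higher against each, from 1.23 against cluster 1 to 4.14 against cluster 8.

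Several of the genes that were higher in cluster 7 were higher still in the 76 cells of cluster 5, which had little Cd34 (93.3 reads per 500000 against 1315). Bmp5 was at 358 ± 148.6 in cluster 5 and 19.3 ± 21.1 in cluster 7, a log2 fold change of -4.81 for cluster 7 over cluster 5. Thsd4 (-2.96), Tspan8 (-2.60), Gata5 (-2.08) and Bmp3 (-1.61) of the leading genes, Col12a1 (-2.73) and Fn1 (-1.30) were also lower than in cluster 5 in 5 of 5 shared groups, Ednrb (0.17), Gm973 (-0.08) and Asz1 (0.60) went both ways, and Efhd1 (6.59), Slc9a3r1 (5.82), Stmn2 (5.80), Slc4a4 (4.75) and Necab1 (2.55) were higher in 5 of 5, while Wnt2 (0.26) differed little and Chodl was higher (1.11). Of 10 sub-epithelial fibroblast markers, 2 were called higher in cluster 7 against clusters 1, 2, 3, 6 and 8, Bmp5 and Col12a1, and 1 lower, Cxcl14, with a median of 2.08. Ptgs1, the cyclooxygenase 1 gene (34.6 ± 44.2 against 1.48 ± 1.29), and Dkk2 (13.2 ± 20.6 against 0.690 ± 1.05) were higher in 6 of 7 groups and not called. The cluster 7 level of Ptgs1 was 130.02 in Cspg4dsRED and 0 to 41.05 in the other groups. Car3, a carbonic anhydrase gene of that list, was at 1101 ± 286.8 in cluster 5 and 6.18 ± 9.91 in cluster 7, beside 1.86 to 5.12 in the 5 comparator clusters.

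**Figure D4:**
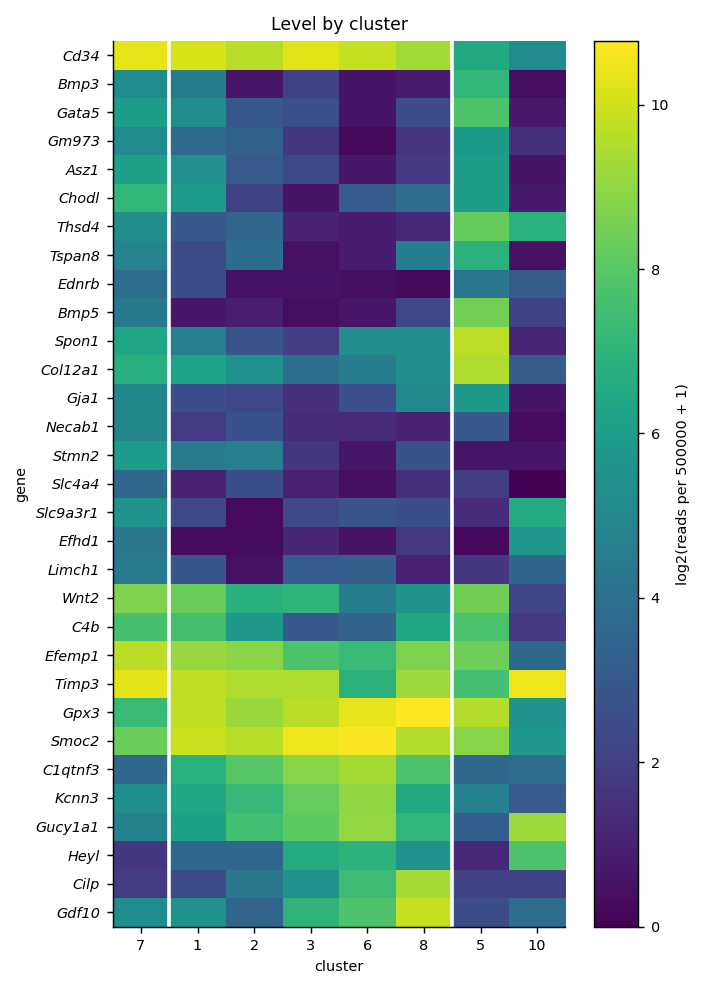
Mean level, as log2(reads per 500000 + 1) by colour, of genes (rows) in clusters (columns): cluster 7 at the left of the first white line, then clusters 1, 2, 3, 6 and 8, and clusters 5 and 10 at the right of the second. Bmp3 was at 37.4 in cluster 7, 22.6 in cluster 1 and 138.97 in cluster 5, and Bmp5 at 19.3 in cluster 7 and 358 in cluster 5.

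Across all 11 clusters the genes whose level followed Bmp3 most closely, of 10501 compared, were Adamdec1 (r = 0.965), Dpep2 (0.960), Gria4 (0.957), Gata5 (0.944) and Zfp536 (0.942), by Pearson correlation of log2(level + 1) over 11 clusters that shared plates. Zfp536 was at 19.4 ± 11.8, 10.1 ± 7.47 and 1.19 ± 2.85 in clusters 5, 7 and 1. Dpep2 was at 14.5 ± 11.5, 10.1 ± 18.1 and 4.94 ± 7.74 there, its spread in cluster 7 being larger than its mean. In normalised reads its cluster 7 level was 53.6 in Cspg4dsRED and 0 to 15.3 in the other groups, and without Cspg4dsRED its log2 fold change over the comparators was 0.30, higher in 3 groups and lower in 3. Gria4 likewise stood at 82.3 in Cspg4dsRED and at 1.27 to 20.3 in the others.

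Within cluster 7 the leading genes were found in part of the cells. When each cell was thinned to 50000 endogenous reads, which left out 1 cluster 7 cell and 3 comparator cells, Cd34 had at least 1 read in 100% of cluster 7 cells and 99.8% of the 881 comparator cells. Bmp3 had a read in 34.2% of cluster 7 cells (95% Clopper-Pearson interval 28.1 to 40.8), 8.74% of comparator cells and 61.8% of cluster 5 cells. In cluster 10, a cluster of low Cd34 and low Dcn, it had a read in 0.800% of cells. Without thinning the cluster 7 and comparator shares for Bmp3 were 46.9% and 31.2%. Chodl had a read in 47.8% and 13.4%, and Wnt2 in 93.9% and 65.4% of cluster 7 and comparator cells. Cilp differed little at 1 read (34.2% and 42.3%) and widely at 10 reads (0% and 19.2%), the 0 cells allowing a share of up to 1.32%. These intervals cover counting error only, since copies made by PCR are not independent molecules and cells of a group are not independent samples.

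Of the 15 leading genes, a thinned cluster 7 cell had a read of a median of 4 (quartiles 2.75 and 6, range 0 to 10). The median was 3 in cluster 1, 6 in cluster 5 and 1 in each of clusters 2, 3, 6 and 8. A gene without a read at this depth is not shown to be absent from the cell.

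**Figure D5:**
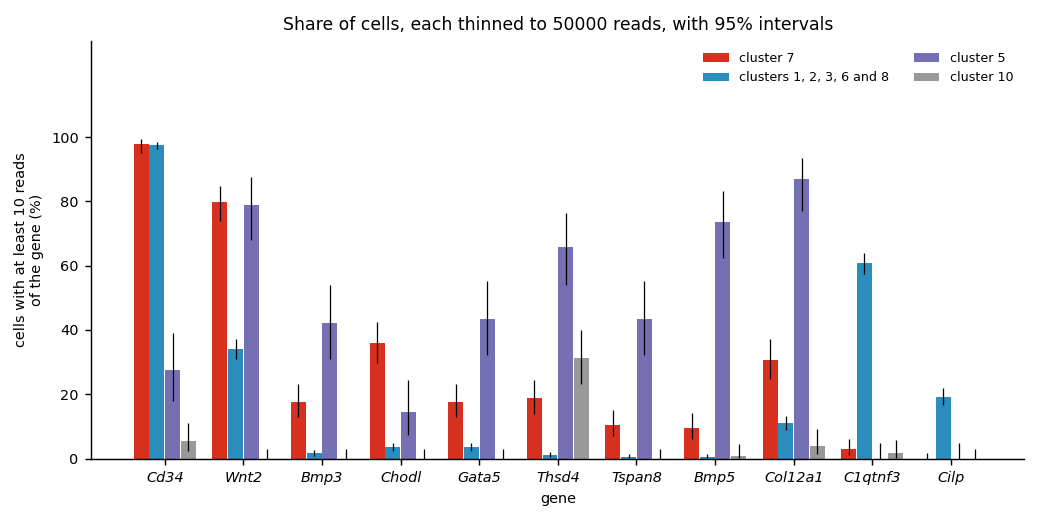
Share of cells, each thinned to 50000 endogenous reads, with at least 10 reads of a gene (vertical axis, %) for 11 genes (horizontal axis), in cluster 7, clusters 1, 2, 3, 6 and 8 together, cluster 5 and cluster 10. Bars are shares and error bars 95% Clopper-Pearson intervals. Cd34 reached 10 reads in 97.8% of cluster 7 and 97.6% of comparator cells, and Bmp3 in 17.5% and 1.59%.

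Cluster 7 was found in every mouse line. Its share among the cells of clusters 1, 2, 3, 6, 7 and 8 was 12.3% in Acta2GFP (9 of 73, 95% interval 5.80 to 22.1), 21.7% in C57BL6 (36 cells, 15.7 to 28.7) and 25.2% in PdgfraGFP (31 cells, 17.8 to 33.8). In PdgfrbGFP it was 22.6% on bladder_074s (79 of 349), 14.4% on bladder_515s (22 cells) and 18.98% on bladder_881s (41 cells). On the plate shared by Acta2GFP and PdgfrbGFP the shares were thus 12.3% and 14.4%, with overlapping intervals (9.24 to 20.96 for the latter). In Cspg4dsRED it was 44% on bladder_352s (11 of 25, 24.4 to 65.1) and 0 of 8 cells on bladder_689s, which allows a share of up to 37.5%. Out of all cells outside cluster 10 the Cspg4dsRED share on bladder_352s was 8.59% (4.37 to 14.9), so that the group with the highest share by the first denominator had nearly the lowest by the second. The other groups that held cluster 7 cells ran from 7.69% in Acta2GFP to 21.9% in PdgfrbGFP on bladder_074s. The sort for each reporter sets which cells enter, so these shares describe the sorted cells and not the tissue.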

How the data were processed

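Single bladder cells of male mice were measured by Smart-seq2 with single reads, 1 library a cell. According to the study's methods, reads were demultiplexed with bcl2fastq, trimmed, aligned with TopHat2 using Bowtie and Bowtie2 to GRCm38 (mm10), and counted with featureCounts of the Subread package. The annotation release and strand setting are not given in the sources used here, so a gene and its antisense partner cannot be told apart. The authors deposited raw counts per gene and cell after removing cells with few reads or genes, high spike-in or mitochondrial shares, or very many genes as possible doublets, cells with neither Pdgfra nor Pdgfrb, and cells with endothelial, immune or other contaminating signatures. No further doublet caller was run. They clustered the cells with pagoda2, and the cluster number was taken from the labels. Cluster 7 held 229 cells, 228 after thinning, and PdgfrbGFP gave 270, 131 and 175 comparator cells on bladder_074s, bladder_515s and bladder_881s. All 1479 columns matched a sample title, and 0 pairs of cells held identical counts. Of 46517 gene rows, 46005 matched the GENCODE M21 annotation used for names and coordinates.

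Counts were summed per class and group of plate and mouse line, where both classes had at least 3 cells. edgeR 4.0.16 (R 4.3.3) fitted the summed counts with TMM scaling, filterByExpr, quasi-likelihood dispersion and plate and line as a block, and gave log2 fold changes and SE. The fit called 138 genes higher and 429 lower. Shares of genes called are percents of the genes tested, which differ between settings. The script was first run on simulated counts. Named genes were Cd34 and Bmp3, the 15 called genes higher and 10 lower with the largest fold change among protein-coding genes at a level of at least 10 in the higher class, the 5 genes and 5 markers with the most reads per kb of exon, every called member of 44 gene lists with up to 4 uncalled members by level, and the 5 genes most like Bmp3 over clusters. Results that need items withheld from this text are not reported here. The members and lists were chosen with earlier results of these data known. The same fit was made against single clusters and with other scaling, filter, depth, unit and comparators. The ERCC test, exact intervals and shares used scipy 1.17.1. The labels pair no animals, and p-values measure the spread between lines. Sequences are from RefSeq (GRCm38.p6).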

Additional observations from a re-analysis of the deposited data

Results flagged for a closer look

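The difference of log2(level + 1) between cluster 7 and its comparators was examined in every gene that the rule for named genes chose for a group far from the other 6, and 58 genes (21.2%) had one, where chance gives about 1 in 20. In 41 of the 58 the group was Cspg4dsRED on bladder_352s, whose comparator cells were mostly of cluster 8. There the difference lay above those of the other groups at 1.18 for Cd34, 7.40 for Stmn2, 2.25 for Sema3c, 6.14 for Wnt2, 5.12 for Sema3b, 5.79 for Entpd1, 2.96 for Hspb8, 0.98 for Ly6a, 1.23 for Pi16, 5.66 for Kcnj8, 3.50 for Tek, 4.93 for Krt8, 3.76 for S100b, 4.50 for Krt19, 1.16 for Nbl1, 1.86 for Id3, 6.97 for Id1, 4.16 for Wnt9a, 6.88 for Sfrp2, 3.74 for Fgf2, 5.81 for Nrp2, 5.12 for Pdgfd, 0.39 for Col5a2, 1.32 for Lamb2, 0.29 for Col6a2, 5.97 for Cxcl13, 0.90 for Ptgis, 0.72 for Dhrs3, 3.74 for Per1, 3.94 for Nr3c1, 1.46 for Tcf21, 1.31 for Klf4, 4.90 for Notch2, 4.24 for Dll1 and 0.40 for Egr1. It lay below them at -6.41 for Foxs1, -6.21 for Pdgfrl, -4.24 for Col5a3, -5.35 for Klf15, -5.28 for Btg2 and -6.71 for Cdh13. In Acta2GFP on bladder_515s the values that stood apart were 0.19 for Gm973, -3.51 for Col4a2, 6.03 for Ano1, 0.75 for Fstl1, -3.89 for Efnb1, -0.0027 for Col8a1, -2.42 for Hsd11b1 and -3.07 for Notch1. In C57BL6 on bladder_443s the values that stood apart were -0.061 for P2ry1 and 1.24 for Upk3a. In PdgfraGFP on bladder_689s the values that stood apart were -0.76 for Musk, -4.10 for Lox and 2.21 for Car3. In PdgfrbGFP on bladder_074s the values that stood apart were -2.42 for Heyl, 1.45 for Pecam1 and -0.40 for Col6a1. In PdgfrbGFP on bladder_515s the value that stood apart was -0.97 for Igfbp6.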

How the results depend on the processing

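The shares of tested genes called, 0.828% higher and 2.57% lower, rested on counts that stayed within 1.5 times under median-of-ratios scaling, DESeq2, no low-count filter, thinned cells, means over cells, equally weighted comparator clusters and comparators without cluster 2, with shares from 0.445% to 0.984% and from 1.79% to 2.98%. The fit with no replicate block, in which plate and line were not paired, called 1.0003% and 2.74%. With the median gene at 0 the shares were 2.54% and 1.72%. Sums per mouse line gave 1.81% and 5.32%, where a gene had to keep its direction in 5 lines in place of 7 groups. With all other fibroblast clusters as comparators they were 0.517% and 4.25%, and Bmp5 turned to -0.61. Leaving out 1 line or group gave 1.003% to 3.18% higher and 3.11% to 7.34% lower, with fewer groups to keep a direction in. Without Acta2GFP 1.59% were higher, without Cspg4dsRED 4.77% were lower, and without the 3 PdgfrbGFP groups the shares were 3.18% and 7.34%. Leaving out Cspg4dsRED added 61 genes higher and 406 lower that were not called with it. Of 6283 recomputed fold changes of named genes, 6129 moved by less than the spread between groups, 1 reversed, and the rest moved by more. In 4 of the 5 lines the line and its group were the same cells, so that leaving out either gave the same fit. Among the called genes named, 25 lost the call in thinned cells, where Bmp3 was at 1.71, 22 with means over cells, 26 with all other fibroblast clusters, 19 with equally weighted clusters, 8 without cluster 2, 5 with no block, 1 with no low-count filter, 2 in sums per line and 4 under median-of-ratios scaling or DESeq2. With the median gene at 0, 20 lost it, all of them lower genes, and leaving out 1 line or group ended 0 to 4 calls. Of the 15 leading higher genes 8 lost the call in at least 1 alternative, and of the 10 leading lower genes 2, Foxs1 and Musk. The cause of these losses was not tested. The ERCC difference of -0.07 lay between -0.21 and -0.01 when 1 line was left out and kept its sign in the other alternatives. Genes near 1 read per 500000, such as Foxs1 and Kit in cluster 7, have fold changes limited by depth.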

Other observations

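The following genes were chosen after their values were seen, among the 0.828% of genes called higher in cluster 7, and stand for no group. Of those given here only Il13ra2 was among the genes past a log2 fold change of 1 against every one of the 5 comparator clusters. Ugdh, which makes UDP-glucuronic acid, the sugar donor for hyaluronan and for glucuronidation, had 240 normalised reads per 500000 against 76.5 in the comparators (log2 fold change 1.77, SE 0.29). All 9 tested Ugt1a genes, which encode glucuronosyltransferases, were called higher, and Ugt1a1 had 114.7 against 45.6 (1.17, SE 0.26). These genes share their last exons, so the 9 calls are not separate measurements. Other enzyme genes called higher were Maob (60.6 against 17.7), which breaks down amines, the carboxylesterase gene Ces2g (134.6 against 54.6) and the catalase gene Cat (123.2 against 62.6).

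Il13ra2, the gene of a decoy receptor for interleukin 13, had 8.00 against 0.0607 reads (log2 fold change 7.64, SE 1.32) and was called, although it lay below the level needed to be among the leading genes. The surface glycoprotein gene Thy1 had 10.3 against 3.34 (1.60, SE 0.79) and was called higher as well.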
